A study of Danio rerio with 4 samples.

Results

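The genes described here are the BMP pathway and its ventral repressors in the zebrafish blastula: the ligands *bmp2b*, *bmp4* and *bmp7a*, the transducers *smad1* and *smad5*, the pseudoreceptor *bambia*, the secreted inhibitor *szl*, and the homeobox genes *vox*, *vent* and *ved*. They were chosen by gene symbol. Of these 10 genes, 9 have a row among the 32468 genes of the deposited table, and *ved* was not analysed here. RNA was taken from whole embryos at sphere stage in 2 groups of 2 samples. The MZ*eomesa* embryos carried the *eomesa* allele fh105. The study describes MZ*eomesa* embryos as coming from homozygous mutant parents, so that both maternal and zygotic Eomesa, a T-box transcription factor, were affected. The wild-type embryos were of the AB strain, the titles of the MZ*eomesa* samples name no strain, and the labels give no treatment. In some experiments of the study, embryos from mutant mothers and heterozygous or wild-type fathers stood in for MZ*eomesa* embryos, and the labels give the RNA-seq samples only by the allele.

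BMP ligands are secreted dimers that bring type I and type II receptors together, and the active type I receptor phosphorylates Smad1, Smad5 or Smad9, which enter the nucleus with Smad4. In the zebrafish embryo this signal specifies ventral fates, and it is limited on the dorsal side by secreted antagonists such as Chordin. Vox, Vent and Ved are homeodomain repressors that keep dorsal organizer genes out of the ventral side.

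The table gives 1 FPKM value per gene and group (a read count corrected for the length of the transcript and the size of the library). The authors combined both samples in it, so values carry no standard deviation and no p-value was computed. How many reads stand behind a value is not known. Log2 ratios are MZ*eomesa* over wild-type, without a pseudocount, and a gene is called past 2-fold only where its FPKM, averaged over both groups, reached a minimum of 1. Of the genes that reached it, 182 were listed at 0 in 1 group and have no ratio. They were counted as past 2-fold, and in ranks by log2 ratio they were placed beyond every gene with a ratio. The mutant label was checked on the targeted gene: *eomesa* had 1.52 FPKM in MZ*eomesa* and 62.6 FPKM in wild-type embryos. Of the blastula genes used to check the stage, *pou5f1*, a maternal pluripotency factor, had 588 FPKM in MZ*eomesa* and 493 FPKM in wild-type embryos. Because *pou5f1* is supplied maternally, its level does not set sphere stage apart from earlier ones. Of the 4 blastula genes that reached the minimum mean, none was past 2-fold, and 3 were listed higher and 1 lower in MZ*eomesa* embryos. The lower one was *sox19b*, with 58.0 FPKM in MZ*eomesa* and 96.1 FPKM in wild-type embryos. Whether both groups were at exactly the same point of development was not tested. The 10 genes of later tissues summed to 5.23 FPKM in MZ*eomesa* and 1.35 FPKM in wild-type embryos. Most of that sum was *elavl3*, with 3.96 FPKM in MZ*eomesa* and 0.728 FPKM in wild-type embryos (log2 ratio 2.44). It was the only gene of that list to reach the minimum mean, through its MZ*eomesa* value.

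In MZ*eomesa* embryos *bmp4* and *szl* were higher and *vent* was lower by more than 2-fold, while *bmp2b*, *bmp7a*, *smad5*, *bambia* and *vox* stayed within 2-fold. The study lists genomic regions bound by both Smad2 and Eomesa in wild-type blastulae, and among the genes described here that list names *vox*, *vent* and *bmp2b*. Regions bound by only Eomesa or only Smad2 were not searched, so binding of either factor alone near the other genes is not known here. What follows concerns the list of regions bound by both. For some regions it also gives the letters of a potential site for Foxh1, a partner of Smad2, found by a search with a Foxh1 motif and not by a measurement of Foxh1 binding. The 3 such sites at regions that name one of these genes are shown because they fall at a gene past 2-fold (*vent*) and at 2 genes within it (*vox* and *bmp2b*). They are written 5′ to 3′ as the study lists them, with no strand given, and capitals mark the 5 of 11 positions at which all 3 sites have the same base. Because the sites were picked by their match to 1 motif, the shared bases follow from the search and say nothing particular about these genes.
region naming *vox* and *vent*, chromosome 13: cgcAATaaACa
first region naming *bmp2b*, chromosome 20: atcAATccACa
second region naming *bmp2b*, chromosome 20: taaAATacACt

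Of the 8 genes that reached the minimum mean of 1 FPKM, 2 were higher by more than 2-fold in MZ*eomesa* embryos, as were 6.02% of the 15103 genes that reached it in the whole table. A further 1 was lower by more than 2-fold, against 4.27% of all such genes. The 8 log2 ratios ran from -1.61 to 2.44 with a median of 0.21, beside a median of -0.01 over all genes. With so few genes these counts do not set the group apart from the rest. Only *smad1* had a mean below it. None of the 9 listed spans overlaps that of another gene. Fewer cells of a type and less RNA per cell cannot be told apart in whole embryos.

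**Figure D1:**
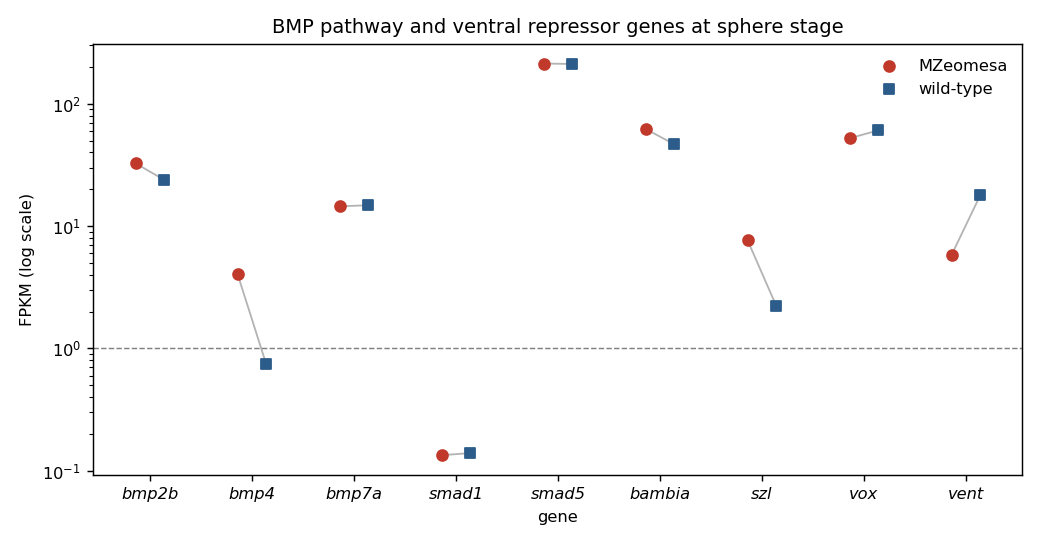
FPKM (log scale) of the 9 genes in MZ*eomesa* (red circles) and wild-type embryos (blue squares), 1 combined value per group, with a dashed line at 1 FPKM. *bmp4* and *szl* sit higher in MZ*eomesa* embryos and *vent* lower, while the pairs of the other 6 genes lie close together.

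Among the ligands, *bmp2b* and *bmp7a*, whose products act as a heterodimer in the early zebrafish embryo, were the more abundant. *bmp2b* (ENSDARG00000041430, Zv9 chromosome 20, 46426776 to 46432528) had 32.5 FPKM in MZ*eomesa* and 23.8 FPKM in wild-type embryos, a log2 ratio of 0.45. *bmp7a* (ENSDARG00000018260, chromosome 11, 7194746 to 7226326) had 14.5 FPKM in MZ*eomesa* and 14.8 FPKM in wild-type embryos, a log2 ratio of -0.03, whose sign turned with upper-quartile scaling (0.02). Both values lie inside the 2-fold limits, and without values per sample it is unknown whether the difference in *bmp2b* exceeds the spread between samples. The level of *bmp2b* was 2.24 times that of *bmp7a* in MZ*eomesa* and 1.61 times in wild-type embryos.

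*bmp4* (ENSDARG00000019995, chromosome 17, 51094183 to 51116252), a ligand needed later for ventral and tail tissues, was the scarcest of the 3 ligands in both groups. It had 4.02 FPKM in MZ*eomesa* and 0.743 FPKM in wild-type embryos, 5.42-fold higher in MZ*eomesa* (log2 ratio 2.44). By log2 ratio it ranked 176 of 15103 genes from the highest. Its wild-type value alone is below the minimum of 1 FPKM, so it entered the count through the group in which it is high. Large ratios were more common at such levels: of the genes with a mean of 1 to 5 FPKM, 10.9% were higher by more than 2-fold in MZ*eomesa* embryos. *bmp4* made up 7.88% of the summed FPKM of the 3 ligands in MZ*eomesa* and 1.89% in wild-type embryos. The sum itself was 51.0 FPKM in MZ*eomesa* and 39.4 FPKM in wild-type embryos, and most of that difference lay in *bmp2b*, which was higher by 8.69 FPKM, with *bmp4* higher by 3.28 FPKM.

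The intracellular transducers showed little difference between the groups. *smad5* (ENSDARG00000037238, chromosome 14, 27476297 to 27507294), which carries the early BMP signal and is supplied maternally, had 213 FPKM in MZ*eomesa* and 211 FPKM in wild-type embryos, a log2 ratio of 0.01. Its level exceeded that of 98.9% of all listed genes in either group, and it was the most abundant of the 9 genes. *smad1* (ENSDARG00000027199, chromosome 1, 35605158 to 35637057), a close relative used later than Smad5, had 0.134 FPKM in MZ*eomesa* and 0.139 FPKM in wild-type embryos. *smad9*, the remaining transducer of this class, had 1.01 FPKM in MZ*eomesa* and 0.891 FPKM in wild-type embryos, and its span overlaps that of another gene. *smad5* thus made up 99.5% of the summed FPKM of these 3 genes in both groups.

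*bambia* (ENSDARG00000055381, chromosome 12, 24846548 to 24852797) encodes a transmembrane protein like a type I receptor but without the kinase, which dampens signalling. It had 62.2 FPKM in MZ*eomesa* and 46.6 FPKM in wild-type embryos, a log2 ratio of 0.42. The type I receptor *acvr1l*, through which the early ventral signal passes, was also listed higher in MZ*eomesa* embryos, at 158 FPKM against 119 FPKM in wild-type embryos. The ratio of *bambia* to *acvr1l* was 0.394 in MZ*eomesa* and 0.390 in wild-type embryos. Its paralogue *bambib* had 0.880 FPKM in MZ*eomesa* and 0.490 FPKM in wild-type embryos, so *bambia* was the main form in both groups.

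*szl* (ENSDARG00000022987, scaffold Zv9_scaffold3556, 21744 to 26239) encodes Sizzled, a secreted protein that inhibits the tolloid-type proteases which cut Chordin, and in zebrafish it is itself induced by BMP signalling. It had 7.63 FPKM in MZ*eomesa* and 2.23 FPKM in wild-type embryos, 3.42-fold higher in MZ*eomesa* (log2 ratio 1.77). Its rank by log2 ratio was 308 of 15103 from the highest, and its mean of 4.93 FPKM puts it in the class of 1 to 5 FPKM described for *bmp4*. *chd*, the gene for Chordin, had 9.19 FPKM in MZ*eomesa* and 11.1 FPKM in wild-type embryos. The ratio of *szl* to *chd* was therefore 0.831 in MZ*eomesa* and 0.201 in wild-type embryos. The 3 protease genes *bmp1a*, *bmp1b* and *tll1* summed to 30.6 FPKM in MZ*eomesa* and 25.0 FPKM in wild-type embryos, with *bmp1b* sharing part of its span with another gene. *szl* was 0.249 of that sum in MZ*eomesa* and 0.0891 of it in wild-type embryos.

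**Figure D2:**
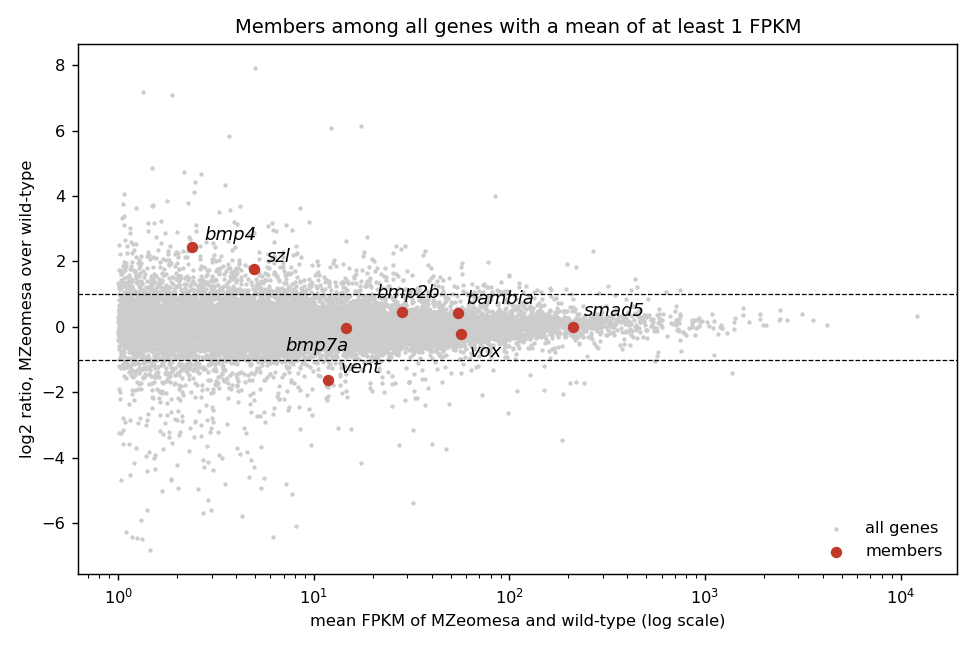
Log2 ratio of MZ*eomesa* over wild-type against the mean FPKM of both groups (log scale), for all genes that average at least 1 FPKM (grey) and the 8 such genes described here (red), with dashed lines at 2-fold. *bmp4* and *szl* lie above the upper line and *vent* below the lower one, and the grey points narrow as the mean rises; 182 genes listed at 0 in a group have no ratio and are not drawn.

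*vox* and *vent* lie side by side on chromosome 13, with 7.57 kb between their listed spans, and their values differed in size of change. *vox* (ENSDARG00000014277, 54046955 to 54049197) had 52.2 FPKM in MZ*eomesa* and 60.5 FPKM in wild-type embryos, a log2 ratio of -0.21. *vent* (ENSDARG00000017164, 54056771 to 54063429) had 5.82 FPKM in MZ*eomesa* and 17.8 FPKM in wild-type embryos, a log2 ratio of -1.61. It was thus 3.06-fold lower in MZ*eomesa* embryos and ranked 342 of 15103 genes from the lowest. In its class of mean level, 5 to 20 FPKM, 3.48% of genes were lower by more than 2-fold. Of this pair *vox* was the more abundant in both groups, at 8.97 times the level of *vent* in MZ*eomesa* and 3.39 times in wild-type embryos. Without a value for *ved*, the main form among all the repressors named is not known. The summed FPKM of both repressors was 58.1 in MZ*eomesa* and 78.4 in wild-type embryos.

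Neighbouring genes were compared in the same way. Within 100 kb of the 9 genes lie 41 other listed genes, of which 22 reached a mean of 1 FPKM. None of the 22 was past 2-fold upwards and 2 were past it downwards, beside 6.02% and 4.27% of all genes. Both of these reached the minimum mean only through their wild-type value. Of these, *DDHD1 (1 of 2)*, 71.4 kb from *bmp4*, had 0.811 FPKM in MZ*eomesa* and 1.68 FPKM in wild-type embryos. The other, *si:dkeyp-110e4.6*, 30.2 kb from *smad5*, had 0.269 FPKM in MZ*eomesa* and 1.84 FPKM in wild-type embryos. The bordering genes of *vox* and *vent* with such a mean, *MRPL2* and *INPP5A*, had log2 ratios of -0.07 and 0.67. Neither neighbour of *szl* at or above that mean was past 2-fold, and no neighbour of *bmp2b* reached that mean. Because *szl* begins at base 21744 of a scaffold, its window on that side ended at the scaffold edge, short of 100 kb.

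**Figure D3:**
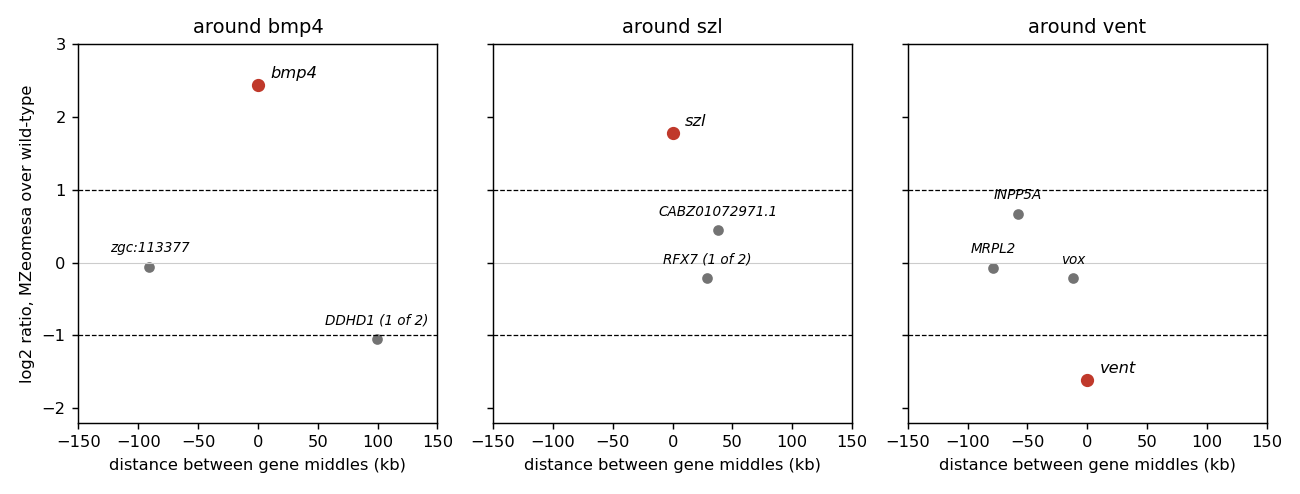
Log2 ratio of MZ*eomesa* over wild-type for *bmp4*, *szl* and *vent* (red) and for their neighbours averaging at least 1 FPKM (grey), against the distance between the middles of the listed spans in kb; dashed lines mark 2-fold. No grey point moves past 2-fold in the direction of the red one, and *vox* lies near 0 beside *vent*.

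The rest of the pathway was followed in 5 lists by role, which hold 99 other genes, 55 of them averaging at least 1 FPKM. Of these 55 genes 5 were past 2-fold upwards (9.09%) and 4 downwards (7.27%), beside 6.02% and 4.27% of all genes, and their median log2 ratio was 0.01. Among 5 further ligands at that level, 1 was listed higher and 4 lower in MZ*eomesa* embryos, with a median log2 ratio of -0.47. The higher one was *admp*, a BMP family gene of the dorsal side, with 15.7 FPKM in MZ*eomesa* and 5.03 FPKM in wild-type embryos (log2 ratio 1.65). *bmp6* had 1.62 FPKM in MZ*eomesa* and 3.57 FPKM in wild-type embryos (log2 ratio -1.14). *gdf9*, a maternal oocyte factor, was the most abundant of the list on average, at 11.6 FPKM in MZ*eomesa* and 13.8 FPKM in wild-type embryos.

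None of the 8 receptor genes that reached a mean of 1 FPKM was past 2-fold in either direction, and their median log2 ratio was 0.07. After *acvr1l* the most abundant was the type II receptor *acvr2b*, with 108 FPKM in MZ*eomesa* and 87.2 FPKM in wild-type embryos. The type II receptors *bmpr2a* and *bmpr2b* were both below 1 FPKM in either group, and the span of *bmpr2a* overlaps that of another gene. Every receptor gene at or above 1 FPKM on average thus differed by less than 2-fold, as *smad5* did.

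Among 11 extracellular modulators, *tll1*, a tolloid-type protease of the kind that Sizzled inhibits, had 3.13 FPKM in MZ*eomesa* and 0.559 FPKM in wild-type embryos (log2 ratio 2.48). As with *bmp4*, its wild-type value is below the minimum. *sostdc1a*, a secreted antagonist, had 0.685 FPKM in MZ*eomesa* and 1.76 FPKM in wild-type embryos, so it reached the minimum mean only through its wild-type value, and its span overlaps those of 2 other genes. The most abundant modulators were *twsg1b*, a Chordin-binding factor, with 41.6 FPKM in MZ*eomesa* and 69.5 FPKM in wild-type embryos, and *bmp1a* with 16.9 FPKM in MZ*eomesa* and 15.0 FPKM in wild-type embryos. The remaining modulators were within 2-fold.

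Of 18 intracellular regulators only *smad7* was past 2-fold. This inhibitory Smad, which blocks BMP as well as Nodal receptors and is induced by such signals, had 0.636 FPKM in MZ*eomesa* and 5.84 FPKM in wild-type embryos, a log2 ratio of -3.20. It reached the minimum mean only through its wild-type value. The most abundant genes of the list were *tob1a*, with 150 FPKM in MZ*eomesa* and 156 FPKM in wild-type embryos, and *ctdspl2a*, with 134 FPKM in MZ*eomesa* and 123 FPKM in wild-type embryos. The span of *tob1a* overlaps those of 3 other genes. *smad4*, the partner of Smad5, had 23.3 FPKM in MZ*eomesa* and 30.8 FPKM in wild-type embryos.

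Of 13 genes of the ventral side and the non-neural ectoderm, 3 were past 2-fold upwards and 1 downwards, beside 6.02% and 4.27% of all genes. Their median log2 ratio was 0.43, beside -0.01 over all genes and 0.51 over the list of early zygotic genes given below. A difference between these targets and early zygotic genes at large was not tested. *foxi1*, a forkhead gene of the non-neural ectoderm, had 45.3 FPKM in MZ*eomesa* and 21.2 FPKM in wild-type embryos. *klf2b* had 33.8 FPKM in MZ*eomesa* and 14.3 FPKM in wild-type embryos. Its paralogue *klf2a* went the other way within 2-fold, with 25.5 FPKM in MZ*eomesa* and 38.4 FPKM in wild-type embryos. *tfap2a*, which marks the non-neural ectoderm, had 73.5 FPKM in MZ*eomesa* and 30.6 FPKM in wild-type embryos. The study reports Eomesa binding near *tfap2a*. By in situ hybridisation it also saw more *tfap2a* in MZ*eomesa* blastulae and less after injection of *eomesa* mRNA. Against the 3 genes past 2-fold upwards, the direct BMP target *id3* was past it downwards, at 5.75 FPKM in MZ*eomesa* and 12.8 FPKM in wild-type embryos. *id1*, another direct target and the most abundant gene of this list, was listed at 227 FPKM in MZ*eomesa* and 315 FPKM in wild-type embryos, and *drl* at 66.1 FPKM in MZ*eomesa* and 78.4 FPKM in wild-type embryos. The targets therefore lay on both sides. *eve1*, a ventral homeobox gene named here after its values were seen, stayed just under the minimum mean, with 1.60 FPKM in MZ*eomesa* and 0.392 FPKM in wild-type embryos.

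**Figure D4:**
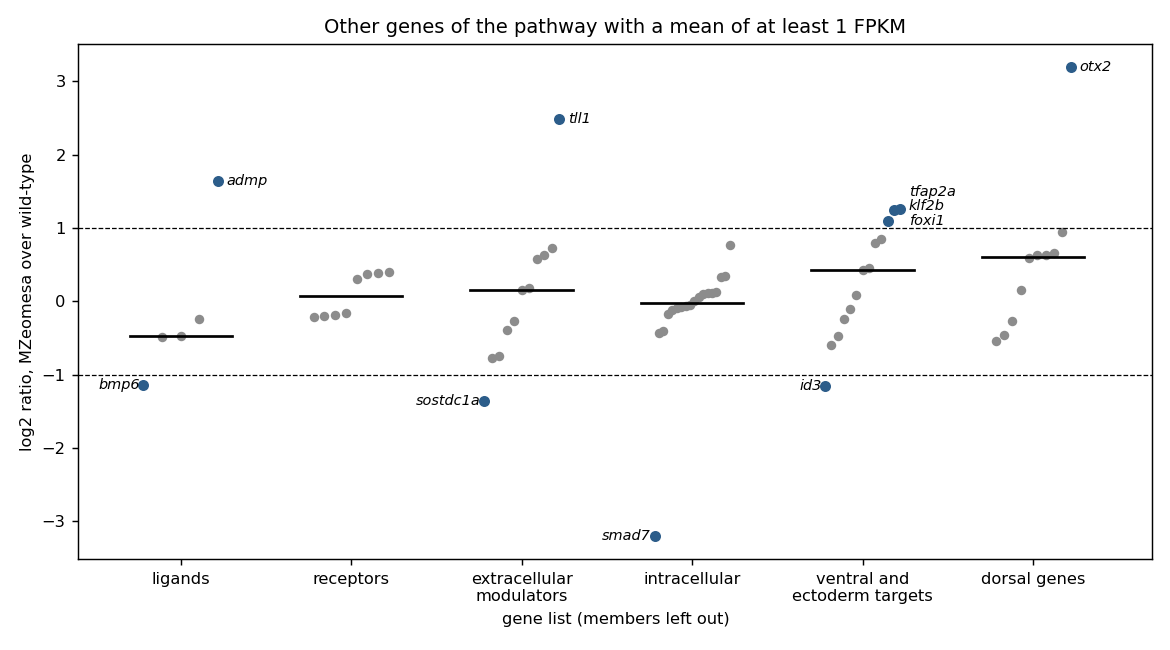
Log2 ratio of MZ*eomesa* over wild-type for each gene averaging at least 1 FPKM in the pathway and dorsal lists, without the genes described first; bars are list medians, dashed lines mark 2-fold, and blue points past them are named. Genes past 2-fold lie on both sides among the ligands, the modulators and the targets, none lies past it among the receptors, and *smad7* and *otx2* stand farthest out.

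Dorsal genes that Vox, Vent and Ved are known to limit were set beside the lower level of *vent*, and a link between them was not tested. Of 10 such genes that reached a mean of 1 FPKM, 7 were listed higher and 3 lower in MZ*eomesa* embryos, with a median log2 ratio of 0.61, beside -0.01 over all genes and 0.51 over the list of early zygotic genes given below. Whether this list differs from early zygotic genes at large was not tested. Only *otx2*, an anterior homeobox gene, was past 2-fold upwards (6.02% of all genes), with 2.55 FPKM in MZ*eomesa* and 0.280 FPKM in wild-type embryos, and it reached the minimum mean only through its MZ*eomesa* value. *gsc*, an organizer homeobox gene, had 23.4 FPKM in MZ*eomesa* and 15.1 FPKM in wild-type embryos. For a later stage, in early epiboly, the study cites RT-PCR with reduced *gsc* transcripts in MZ*eomesa* embryos. Its own in situ hybridisation in early epiboly found *gsc* little affected in them. The notochord gene *flh* had 91.1 FPKM in MZ*eomesa* and 60.7 FPKM in wild-type embryos. *chd*, given above, was on the lower side.

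Markers of other cells and of timing also differed between the groups, and their part in the values of *bmp4*, *szl* and *vent*, and in those of the pathway and dorsal lists, was not tested. For the counts that follow, 6.02% of all genes were past 2-fold upwards and 4.27% downwards. The 8 listed genes of the yolk syncytial layer summed to 9.21 FPKM in MZ*eomesa* and 96.1 FPKM in wild-type embryos, mostly through *mxtx2*, with 6.23 FPKM in MZ*eomesa* and 73.9 FPKM in wild-type embryos. All 3 that averaged at least 1 FPKM were past 2-fold downwards, and 5 were below that mean. Of the 3, *hnf4a* reached it only through its wild-type value, with 0.620 FPKM in MZ*eomesa* and 2.34 FPKM in wild-type embryos. The 14 genes of the enveloping layer summed to 619 FPKM in MZ*eomesa* and 426 FPKM in wild-type embryos. Without *krt18*, which the table marks as failed, the sums were 350 FPKM in MZ*eomesa* and 305 FPKM in wild-type embryos, and of the 10 genes then left at a mean of 1 FPKM or more 3 were past 2-fold upwards and 2 downwards. Among these, *cyt1* (0.184 FPKM in wild-type) reached that mean only through its MZ*eomesa* value, and its span overlaps those of 2 other genes. *anxa1a* (0.922 FPKM in MZ*eomesa*) reached the mean of 1 FPKM only through its wild-type value. Of 16 maternal transcripts 4 were listed higher and 12 lower in MZ*eomesa* embryos, with a median log2 ratio of -0.19. Past 2-fold were 0 upwards and 1 downwards, the germ plasm gene *buc* at 42.0 FPKM in MZ*eomesa* and 96.1 FPKM in wild-type embryos. Of 25 genes transcribed early from the zygotic genome 19 were listed higher and 6 lower in MZ*eomesa* embryos, with a median of 0.51. In this list 5 were past 2-fold upwards and 3 downwards. Of the 3, *osr1* (0.388 FPKM in MZ*eomesa*) reached the minimum mean only through its wild-type value. The largest changes in that list were those of *sp5l*, with 15.7 FPKM in MZ*eomesa* and 1.27 FPKM in wild-type embryos, and *blf*, with 31.0 FPKM in MZ*eomesa* and 342 FPKM in wild-type embryos.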

How the data were processed

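Poly(A) RNA from whole sphere stage embryos was sequenced by the study as single reads. The authors mapped the reads to Zv9 with TopHat2 (version 2.0.5 in the submitters' processing notes) and estimated expression with Cufflinks, whose setting shares reads of several origins among genes. The authors' deposited values are FPKM per gene and group, both samples of a group combined. Sequencing depth is unknown here, and intervals or floors that need it were not given. Whether the samples of a group came from separate clutches is not given in the sources used here. The table's fold changes, test statistics, p-values and q-values are the authors' own comparison and were not used.

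From these values, log2 ratios (MZ*eomesa* over wild-type), counts past 2-fold among genes averaging at least 1 FPKM, and level ratios between genes were computed (Python 3.11.15, pandas 2.3.3, numpy 2.4.6), and the counting was tested on simulated data. No test between groups was made. The genes and lists were chosen with earlier results of these data known. Named were the 10 chosen genes, *eomesa*, list genes past 2-fold, the 2 most abundant genes of each pathway and dorsal list, at most 2 genes of each timing or cell type list, and neighbours past 2-fold. Other genes named (*chd*, *bmp1b*, *smad4*, *smad9*, *bambib*, *bmpr2a*, *bmpr2b*, *eve1*, *klf2a*, *pou5f1*, *sox19b*, *elavl3*, *krt18*, *cyt1*, *anxa1a*, *mxtx2*, *hnf4a*, *osr1*, *MRPL2* and *INPP5A*) were added after values were seen. Listed symbols without an exact match were not used. The alternatives were other folds, minimum values, pseudocounts and scalings, and, added after seeing the data, leaving out genes whose status is failed, low data or too much data.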

Additional observations from a re-analysis of the deposited data

How the results depend on the processing

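No paired analysis was possible because the deposited values combine both samples of each group, and for the same reason no replicate could be left out. The log2 ratios of the 9 genes kept their side of 2-fold under pseudocounts of 0.1 and 1, centring on the median and upper-quartile scaling. They ran from 1.53 to 2.48 for *bmp4*, 1.42 to 1.82 for *szl* and -1.61 to -1.46 for *vent*. Only *bmp7a*, near 0, changed sign, with upper-quartile scaling. Of the 8 genes with a sufficient mean, the counts past 2-fold were 2 upwards and 1 downwards, and a minimum mean of 5 FPKM left 0 upwards, since *bmp4* and *szl* fall below it. For the 55 other pathway genes that reached a mean of 1 FPKM, 5 upwards and 4 downwards became 10 and 7 at 1.5-fold, and 2 and 1 at 3-fold. Over all 99 listed pathway genes with no minimum the counts were 13 and 9. A minimum of 0.1 FPKM, which also admits more of the 99, gave 10 upwards, a minimum of 5 FPKM gave 1 downwards, and log2(FPKM + 1) gave 2 downwards, with *bmp6* at -0.80 and *sostdc1a* at -0.71. Over all genes, 909 upwards and 645 downwards became 1917 and 1637 at 1.5-fold, 377 and 345 at 3-fold, 3994 and 3321 with no minimum, 2022 and 1527 at a minimum of 0.1 FPKM, 374 and 242 at 5 FPKM, and 548 and 420 with log2(FPKM + 1). Depth is unknown, so the error of low values such as *bmp4* in wild-type embryos and *smad1* cannot be stated.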
